A study of Mus musculus with 20 samples.

Results

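The response of wild-type (WT) mouse thymocytes to irradiation was read from 5 expression arrays, 3 labelled irradiated and 2 labelled untreated, out of 20 arrays in the whole series. The members were chosen by their labels alone, and the response was described across all genes. All 5 samples are thymocytes of C57BL/6 mice with the genotype wt, and no label gives the dose of radiation, the time after it or the age of the mice. The other 15 arrays hold thymocytes labelled Gfi1 KO, untreated (2) or irradiated (3), and thymic tumours of both genotypes (3 and 3 after the mutagen ENU, 2 and 2 in mice that also carried a Notch1 transgene). The shared treatment text of the series names floxed Gfi1, a Cre driven by the Mx1 promoter and injections of pIpC for the tumour mice, and it does not state whether the mice behind the thymocyte samples carried the floxed allele or were injected. No label says whether arrays of a group come from different animals, so the p-values measure the spread between these arrays, which may be technical. The running numbers in the sample descriptions form separate blocks for irradiated and untreated thymocytes, and any batch that follows them cannot be told apart from irradiation.

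Thymocytes are developing T cells. Most of them are small CD4+ CD8+ double-positive cells, which die readily after ionising radiation, and this death depends on the transcription factor p53. DNA breaks activate the kinases Atm and Atr, p53 is stabilised, and it switches on genes for cell cycle arrest (Cdkn1a), for death (Bbc3, Pmaip1, Bax), for DNA repair and for its own restraint (Mdm2, Ccng1, Ppm1d). Gfi1, the gene of the series, encodes a transcriptional repressor of T cell precursors and myeloid cells that is known to restrain p53 target genes.

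Values are log2 array signals of genes, each the median of its probe sets. A difference is irradiated minus untreated on this scale, written with its standard error (SE), and a value in parentheses after a gene is that difference. A gene rose or fell where limma, a linear model fitted to all genes, gave a Benjamini-Hochberg adjusted p under 0.05. Of 19607 genes, 12747 were bright enough to be tested (above the 40th percentile of an array on at least 2 of the 10 thymocyte arrays), and 4413 of them (34.6%) passed: 1651 (13%) rose and 2762 (21.7%) fell. Changes over 2-fold were rarer, with 94 genes higher (0.737%) and 241 lower (1.89%). All 3 irradiated arrays lay above both untreated ones for 3043 genes (23.9%) and below both for 4204 (33%), and 98.9% of the called genes were among these. Of 238 named genes tested, 32 lay under that percentile on all untreated or on all irradiated WT arrays and 12 on all 5, among them Plk2, S100a8, Hist1h2ac and Ms4a1 in the former and Cxcr6 in the latter. The sizes of their differences are of dim signals and less certain than their direction. The 12 entered the test only through arrays labelled KO. The median difference of all genes tested was -0.02 and their median SE was 0.112. The median depended on signal level. Over 5 bins of genes from dim to bright it was 0.11, 0.04, -0.11, -0.10 and -0.04. The dimmest bin spanned levels of 6.17 to 8.31. Of 25 olfactory receptor genes tested, taken by symbol, 13 rose and 0 fell, with a median of 0.35 at a median level of 8.1. Whether small rises of other dim genes share this shift was not tested. The split between rises and falls depends on the scaling: with each array centred on its median over these genes, all differences moved up by 0.117, 3071 genes rose and 1877 fell, so that rises were 62.1% of the calls in place of 37.4%. The number of calls depends on the untreated arrays too, and without untreated 1 it was 2111 (765 higher and 1346 lower), while without untreated 2 it held 981 rises. When the tumour arrays joined the fit and its estimate of the spread, 548 genes passed (192 higher and 356 lower), and the replication list kept 0 rises, the ATF4 list 4 and the interferon list 9 falls. Of 111769 single probe sets tested, 8.55% rose and 11.8% fell. Correlations over all probe sets were 0.986 between the untreated arrays, 0.976 to 0.982 among the irradiated arrays and 0.949 to 0.967 between the groups. The array medians over genes lay between 8.32 and 8.38. The arrays carry the marks of T lineage cells: Cd3e, a chain of the T cell receptor complex, had values of 13.9 and 13.85 on the untreated arrays and 13.82, 13.85 and 13.87 on the irradiated arrays, and Rag1, a recombinase of receptor gene rearrangement, had values of 14.45 and 14.35 on the untreated arrays and 14.24, 14.44 and 14.29 on the irradiated arrays. Neither differed past the threshold, and for both the groups overlapped.

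Short promoter sequences are shown first, since several gene groups with a known DNA element moved together. RefSeq windows of build GRCm38.p6, each from 250 bases before to 50 after a transcript start, were at hand for 10086 of the genes tested (32851 windows over all genes). A p53 response element was searched by its consensus of 2 abutting 10-base repeats with at most 2 mismatches and a fixed core. It was in 0.326% of all windows and in 0.36% of those of the genes tested. The share was 0.656% for genes that rose and 0.423% for genes that fell. The element was in 6 of 53 windows of the p53 targets listed below. Those 6 genes were Cdkn1a, Ccng1, Gtse1 and Zfp365, which rose, Ckap2, which fell, and Rps27l, which was not called. The sequences shown are those of the strongest rises whose match lies wholly before the start. The capitals mark the element, 51 bases before a RefSeq transcript start of Cdkn1a and 195 bases before one of Ccng1, with 1 mismatch each. A gene can have several such starts, and a window with a match was shown, which need not be that of the main start.
Cdkn1a, chr17:29090879-29090978, plus strand: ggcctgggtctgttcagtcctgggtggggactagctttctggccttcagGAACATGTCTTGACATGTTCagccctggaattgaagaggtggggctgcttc
Ccng1, chr11:40755422-40755521, minus strand: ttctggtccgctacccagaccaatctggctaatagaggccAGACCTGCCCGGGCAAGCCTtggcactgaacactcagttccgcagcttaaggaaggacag

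The interferon-stimulated response element (TTTCNNTTTC, with N for any base, both strands) was in 3.44% of all windows, in 2.89% of the windows of the genes tested, in 4.61% of those of genes that fell and in 13.5% of those of genes that fell over 2-fold. In the interferon list it was in 16 of 36 windows. Ifit3 and Ifit1, antiviral genes and the steepest falls of that list, carry it 2 times each within 156 and 104 bases of their starts, as the capitals show.
Ifit3, chr19:34583345-34583444, plus strand: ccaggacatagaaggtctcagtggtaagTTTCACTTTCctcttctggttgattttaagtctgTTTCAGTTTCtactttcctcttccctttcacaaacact
Ifit1, chr19:34640749-34640848, plus strand: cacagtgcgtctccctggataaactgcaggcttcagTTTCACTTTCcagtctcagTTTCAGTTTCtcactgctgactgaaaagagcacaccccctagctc

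The ATF4 composite element, which binds the amino acid stress factor ATF4 with a C/EBP partner (TGATGNAA, both strands), was in 3.97% of all windows and in 9 of 25 windows of the ATF4 list, but in 2.09% of the windows of genes that rose and 2.2% of those of the genes tested. Asns (asparagine synthetase) and Chac1 (a glutathione-degrading enzyme) are shown as the strongest rises with a match. The capitals mark it, on the reverse strand in Chac1.
Asns, chr6:7693210-7693309, minus strand: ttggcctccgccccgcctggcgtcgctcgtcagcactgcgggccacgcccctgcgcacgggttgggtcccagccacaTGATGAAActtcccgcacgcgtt
Chac1, chr2:119351003-119351102, plus strand: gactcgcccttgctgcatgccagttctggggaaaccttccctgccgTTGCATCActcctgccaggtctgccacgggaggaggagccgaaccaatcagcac

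An E2F site (TTTCCCGC or TTTGGCGC, both strands) was in 1.56% of all windows, in 2.82% of those of the genes tested, in 3.93% of the windows of genes that rose, in 2.25% of those of genes that fell and in 12 of 43 windows of the DNA replication list. The cell cycle homology region (TTTGAA, both strands), an element of G2 and M phase genes, was in 17.9% of all windows, in 12.2% of those of the genes tested, in 9.42% of the windows of genes that rose, in 15.4% of those of genes that fell and in 27 of 35 windows of the mitosis list. The origin licensing genes Cdc6 and Mcm5, which rose, and the mitotic genes Cdc20 and Cdc2a (now Cdk1), which fell, show these elements in capitals. Each share counts letters only, overlaps between elements were not removed, and a match is not a measured binding site.
Cdc6, chr11:98907967-98908066, plus strand: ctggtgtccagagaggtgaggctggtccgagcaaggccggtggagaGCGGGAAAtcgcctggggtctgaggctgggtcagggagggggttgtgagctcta
Mcm5, chr8:75109314-75109413, plus strand: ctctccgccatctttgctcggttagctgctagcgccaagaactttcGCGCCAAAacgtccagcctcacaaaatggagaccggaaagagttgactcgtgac
Cdc20, chr4:118437344-118437443, minus strand: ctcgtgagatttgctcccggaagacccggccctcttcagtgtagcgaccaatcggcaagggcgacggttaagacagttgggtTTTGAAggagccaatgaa
Cdc2a, chr10:69352913-69353012, minus strand: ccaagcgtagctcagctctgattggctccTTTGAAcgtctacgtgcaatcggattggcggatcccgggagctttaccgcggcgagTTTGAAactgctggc

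**Figure D1:**
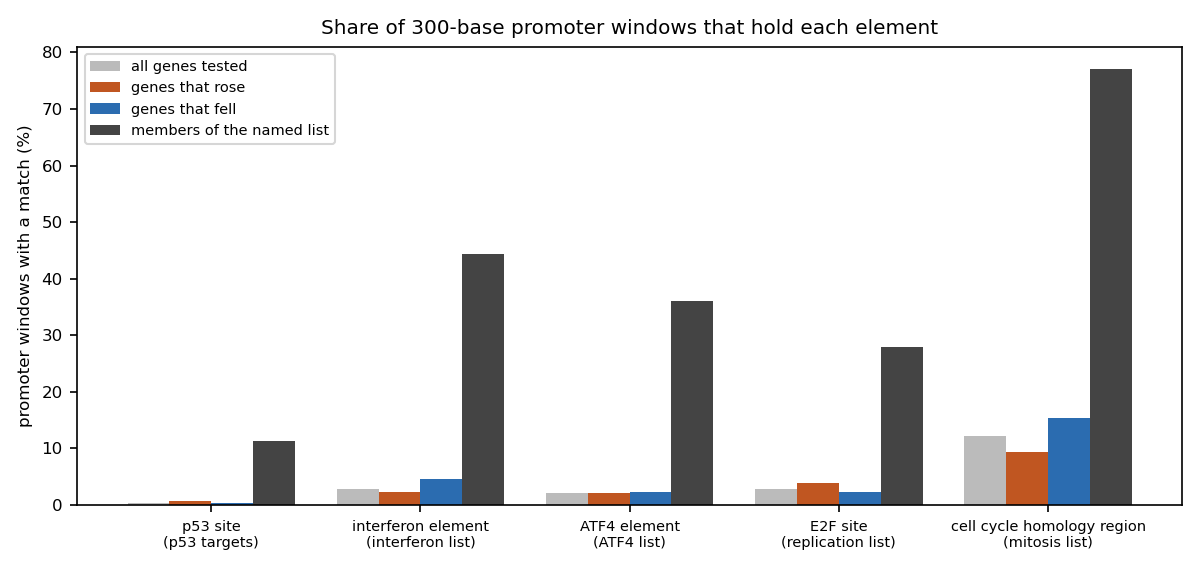
Share of 300-base promoter windows (percent, vertical axis) that hold each of 5 DNA elements, for all genes tested, genes that rose, genes that fell and the gene list named under each element. The list bars stand above the others for each element, at 11.3% (p53 site), 44.4% (interferon element), 36% (ATF4 element), 27.9% (E2F site) and 77.1% (cell cycle homology region). Each list gathers genes of a role known to use that element, so its higher share does not bear on the irradiation response.

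Of 58 listed p53 targets, 51 were tested, 23 rose and 9 fell, with a median difference of 0.18 beside -0.02 for all genes tested, of which 13% rose and 21.7% fell. The death genes had the highest median (0.60), then the feedback genes (0.37), the arrest genes (0.18) and the repair and other genes (0.04). Bax and Trp53 itself have no probe set of their own here, and Eda2r was too dim to test.

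Among 12 arrest genes, 5 rose and 2 fell. Cdkn1a, the cyclin-dependent kinase inhibitor p21, had values of 8.12 and 8.3 on the untreated arrays and 10.84, 11.01 and 11.01 on the irradiated arrays. The groups did not overlap, the rise was 6.7-fold (2.74 ± 0.13, adjusted p = 5.39e-10), and all 5 probe sets rose. Sesn2, a stress sensor that restrains mTORC1, had values of 8.02 and 7.68 on the untreated arrays and 9.67, 10.08 and 9.9 on the irradiated arrays (2.03 ± 0.13, adjusted p = 7.98e-09). Plk2, a polo-like kinase induced by genotoxic stress, rose by 1.94 with 1 irradiated array above the other pair (8.30, 8.88 and 8.32 against 6.61 and 6.52 untreated). Gtse1, a G2 and S phase protein that binds p53, rose by 1.43. The falls were Plk3 (-0.82), another polo-like kinase, and Ckap2 (-0.89), a protein of the mitotic spindle.

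The death genes held 10 rises and 3 falls among 16 tested. Phlda3, which restrains Akt signalling, had values of 8.13 and 8.15 on the untreated arrays and 10.85, 10.7 and 10.78 on the irradiated arrays, tight within each group and far apart between them (6.22-fold, 2.64 ± 0.14, adjusted p = 1.51e-09). Bbc3, which encodes the BH3-only killer Puma, had values of 8.77 and 8.47 on the untreated arrays and 9.9, 9.98 and 9.49 on the irradiated arrays (1.17 ± 0.16, adjusted p = 3.24e-05), and all 4 probe sets rose. Lrdd (now Pidd1), the core of the caspase-2 platform, rose by 0.97, the death receptor gene Tnfrsf10b by 0.78, the nuclease gene Aen by 0.75, the RNA-binding gene Zmat3 by 0.62 and Pmaip1, which encodes Noxa, by 0.61. Tnfaip8 (-1.35) and Bid (-0.83), a BH3-only gene cut by caspase-8, fell. Fas (-0.24, adjusted p = 0.083) and Trp53inp1 (-0.08, adjusted p = 0.569), both textbook p53 targets, were not called. Trp53inp1 came to 0.04 with centred arrays.

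Of 5 feedback genes, 3 rose and 0 fell (likewise 3 and 0 at an unadjusted p under 0.05 in limma). Ccng1 (cyclin G1) had values of 12.2 and 12.23 on the untreated arrays and 13.13, 13.26 and 13.24 on the irradiated arrays, a rise of 0.99 ± 0.10 (adjusted p = 9.61e-07) with 7 of 8 probe sets higher, and Ppm1d, the phosphatase Wip1, rose by 0.67. Mdm2, the ubiquitin ligase of p53, had values of 11.19 and 11.23 on the untreated arrays and 11.44, 11.68 and 11.62 on the irradiated arrays, a rise of 1.29-fold (0.37 ± 0.11, adjusted p = 0.0122), and 3 of its 12 probe sets rose. Its groups did not overlap, but its call was lost without untreated 1 (adjusted p = 0.107) or untreated 2 (adjusted p = 0.0563). Of 18 repair and other targets, 5 rose and 4 fell (without untreated 1, 3 and 2, and without untreated 2, 3 rises). Slc19a2, a thiamine transporter gene, led them (1.65 ± 0.11), followed by the translesion polymerase gene Polk (0.84) and the lipase gene Abhd4 (0.73). The nucleotide excision repair genes Ddb2 (0.06, adjusted p = 0.687) and Xpc (-0.49, adjusted p = 0.00217) did not rise, and Xpc fell.

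**Figure D2:**
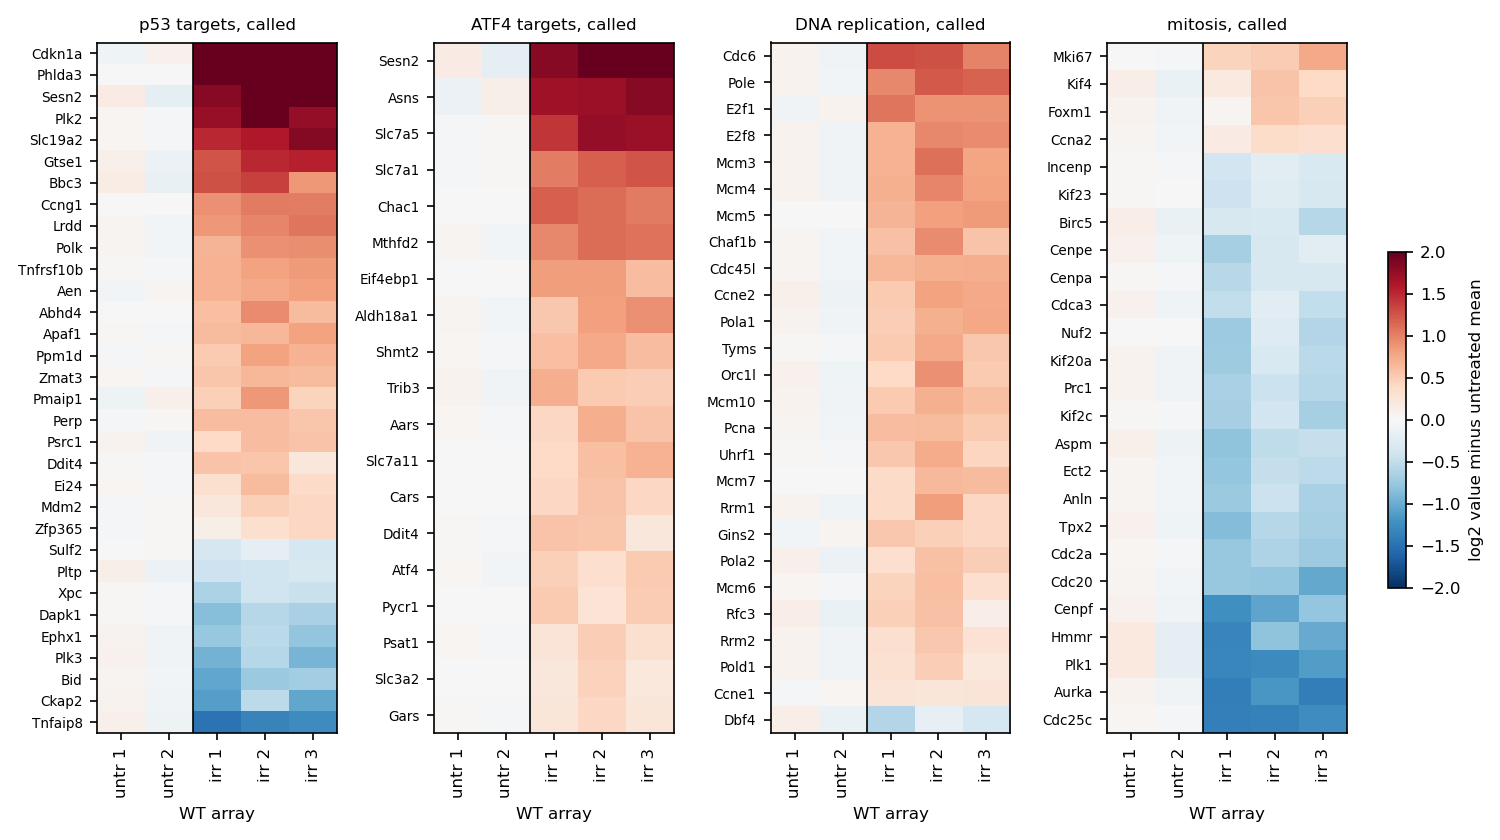
Called members of the p53 target, ATF4 target, DNA replication and mitosis lists (rows) on the 5 WT arrays (columns), coloured by the log2 value minus the mean of the untreated arrays, with colours capped at 2 in both directions. The 3 irradiated columns share their colour in nearly every row, red for all called ATF4 genes and for all replication genes but Dbf4, blue for all mitosis genes but Mki67, Kif4, Foxm1 and Ccna2.

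Death and survival genes of other classes moved both ways, and Bbc3, Pmaip1 and Bid are on the p53 lists as well. Among 10 BH3-only and effector genes of the Bcl2 family, Bbc3, Bcl2l11 (0.90 ± 0.11), which encodes the thymocyte killer Bim, and Pmaip1 rose, while Bid and Bmf (-0.56) fell. Of 8 survival genes tested, 5 fell and Tnfaip3 (0.41) rose, a call lost without either untreated array. Their median was -0.46. Xiap, the caspase inhibitor, had values of 9.42 and 9.31 on the untreated arrays and 8.47, 8.78 and 8.35 on the irradiated arrays (-0.83 ± 0.15, adjusted p = 0.000412), with no overlap. Cflar, which blocks caspase-8, fell by 0.83, Mcl1 by 0.58, Bcl2 by 0.49 and Birc3 by 0.43. Bcl2l1, which encodes Bcl-xL and protects double-positive cells, was at -0.13 and was not called. Of 5 caspase genes, Casp2 rose (0.56) and Casp8 (-0.45), Casp6 (-0.48) and Casp4 (-0.49) fell. Without untreated 1, 1 of those 3 falls was left.

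The cell cycle genes split by phase. Of 44 genes of DNA replication and the G1 to S transition, 25 rose and 1 fell, with a median of 0.39. Cdc6, which loads the replicative helicase, had values of 8.74 and 8.61 on the untreated arrays and 9.98, 9.95 and 9.66 on the irradiated arrays (1.19 ± 0.14, adjusted p = 8.56e-06). Pole, the leading strand polymerase, had values of 9.33 and 9.21 on the untreated arrays and 10.23, 10.49 and 10.45 on the irradiated arrays (1.13 ± 0.11), and 37 of its 44 probe sets rose. E2f1 (0.96), E2f8 (0.87), Mcm5 (0.78) and Mcm4 (0.83) rose as well, each with all irradiated arrays above both untreated ones. The fall was Dbf4, a kinase activator at origins (-0.37), a call that was lost without untreated 1, irradiated 1 or irradiated 3.

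Mitotic genes went the other way. Of 40 tested, 21 fell and 4 rose, with a median of -0.31 (without untreated 1, 13 fell and 2 rose, and without irradiated 2, irradiated 3 or untreated 2, 1 rose). Aurka, the Aurora A spindle kinase, had values of 10.3 and 10.17 on the untreated arrays and 8.85, 9.07 and 8.85 on the irradiated arrays, a fall of 2.48-fold (-1.31 ± 0.10, adjusted p = 1.05e-07). Plk1, the mitotic polo-like kinase, had values of 11.39 and 11.01 on the untreated arrays and 9.89, 9.92 and 10.08 on the irradiated arrays (-1.24 ± 0.11). Cdc25c (-1.32), the phosphatase that starts mitosis, Hmmr (-1.05), Cenpf (-1.02) and Cdc20 (-0.86) fell too. The rises were Mki67 (0.57), Kif4 (0.39), Foxm1 (0.36) and Ccna2 (0.29). The groups of arrays did not overlap for any of the 6 named falls.

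Of 26 histone genes, 12 fell and 1 rose, with a median of -0.38 (7 fell without untreated 1). Hist1h2ac (now H2ac6) had values of 9.68 and 9.51 on the untreated arrays and 7.59, 7.48 and 7.28 on the irradiated arrays (-2.15 ± 0.12, adjusted p = 2.67e-09) on a single probe set. The rise was Hist1h2bc (0.85), and histone paralogs are so alike that their probes may share signal. Of the cell cycle regulators, the D-type cyclin genes Ccnd2 (-1.41 ± 0.10) and Ccnd3 (-0.97 ± 0.10) fell, and Ccnd2 had values of 11.55 and 11.6 on the untreated arrays and 10.13, 10.26 and 10.12 on the irradiated arrays. E2f7 (1.10), a repressor of E2F targets, E2f3 (0.55) and Cdkn1c (0.33), a kinase inhibitor gene, rose. Cdk6 (0.37), Rb1 (0.35) and Cdkn1a complete 6 rises of 17 tested, which became 3 without untreated 1 or untreated 2, and without irradiated 2 the 2 falls became 4. Myc, a transcription factor gene, had values of 11.62 and 11.46 on the untreated arrays and 9.7, 9.84 and 9.79 on the irradiated arrays, a fall of 3.39-fold (-1.76 ± 0.11, adjusted p = 5.47e-09). Of 11 genes of the Myc network, 4 rose and 2 fell (3 and 2 with the 5 WT arrays fitted alone). The Myc antagonists Mxi1 (0.65), Mxd1 (0.51) and Mnt (0.43) rose.

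In the list of DNA repair and checkpoint genes, 13 of 43 rose and 3 fell, with a median of 0.04. Bard1 (1.17) and Brca1 (1.03), which form the ligase complex of homologous recombination, rose together, and Brca1 had values of 8.48 and 8.44 on the untreated arrays and 9.34, 9.61 and 9.51 on the irradiated arrays (1.03 ± 0.11, adjusted p = 2.44e-06). Clspn (1.02), which carries the replication checkpoint signal, Exo1 (0.82), Lig1 (0.80), Wee1 (0.64) and Chek1 (0.60) also rose. The break sensor kinase gene Atm was not called (-0.27, adjusted p = 0.146), Atr fell by 0.69, Xrcc4 by 0.51 and Chek2 by 0.41. Without irradiated 2, 8 genes fell in place of 3.

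**Figure D3:**
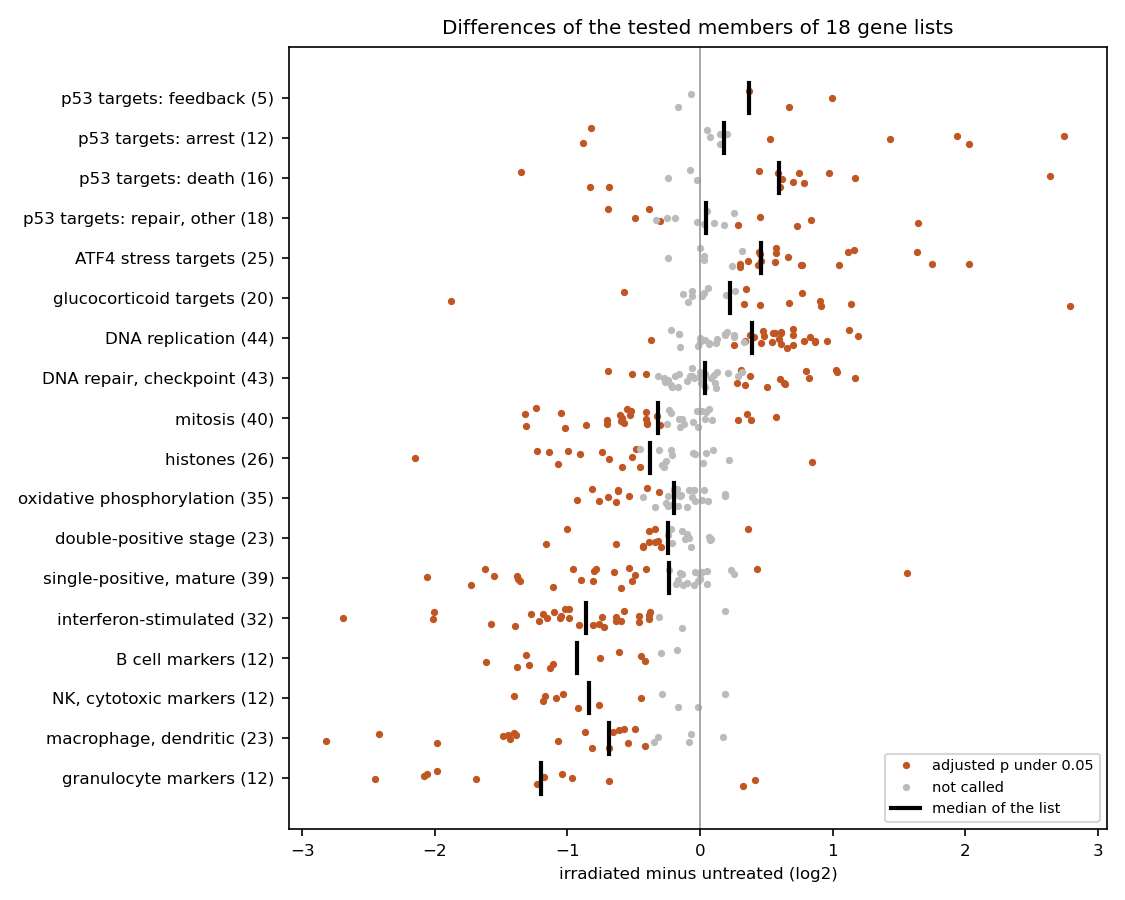
Irradiated minus untreated difference (log2, horizontal axis) of every tested member of 18 gene lists (rows, with the number tested), coloured where the adjusted p was under 0.05, with the median of each list as a black bar. The ATF4 and replication medians lie at 0.46 and 0.39, and those of the interferon, B cell, NK, macrophage and granulocyte lists between -1.20 and -0.69.

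Genes driven by ATF4, the factor of amino acid and integrated stress, rose broadly: 19 of 25 rose and 0 fell in limma (20 and 0 at an unadjusted p under 0.05), with a median of 0.46. The lowest member, Psph (-0.24), was not called. Asns had values of 6.89 and 7.12 on the untreated arrays and 8.7, 8.73 and 8.83 on the irradiated arrays, a measured difference of 1.75 ± 0.13 (adjusted p = 5.05e-08), with all 8 probe sets higher. Its untreated values were under the filter level, against which the rise was at least 1.83-fold. Slc7a5, the large neutral amino acid transporter gene, had values of 10.59 and 10.63 on the untreated arrays and 12.04, 12.37 and 12.33 on the irradiated arrays (1.64 ± 0.11, adjusted p = 2.09e-08), and the groups were again apart. Sesn2, Slc7a1 (1.16), an arginine transporter gene, Chac1 (1.12) and Mthfd2 (1.05), a mitochondrial folate enzyme gene, rose, as did Atf4 itself (0.44). Sesn2 and Ddit4 are on the p53 lists as well. The serine synthesis gene Phgdh was at 0.00 and Atf3 at 0.03, and neither was called. In a list of 19 tRNA synthetase genes, added after the values were seen, 6 rose and 1 fell (3 rises without untreated 2, 4 falls without irradiated 2 and 0 falls without any other array), led by Aars (0.57) and Iars (0.54).

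Of 20 glucocorticoid targets, 9 rose and 2 fell, with a median of 0.23. Mt2, a metallothionein gene that also responds to metals and stress, was the largest rise of all genes, with values of 9.11 and 8.76 on the untreated arrays and 11.83, 11.56 and 11.78 on the irradiated arrays (6.91-fold, 2.79 ± 0.17, adjusted p = 6.37e-09). Its neighbour Mt1 rose by 0.77, and probes of the pair may share signal. Dusp1 (1.14), a phosphatase of MAP kinases, Per1 (0.91), Bcl2l11 and Tsc22d3 (0.67) rose, while Fkbp5 (-0.06) was not called and Hsd11b1 (-1.87 ± 0.11), which regenerates glucocorticoid, fell.

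Immediate early genes moved both ways, with 10 of 27 higher (37%) and 6 lower (22.2%), beside 13% and 21.7% of all genes tested. Egr1, a rapid target of receptor signalling, had values of 10.77 and 10.77 on the untreated arrays and 8.94, 9.11 and 9.06 on the irradiated arrays (-1.73 ± 0.10, adjusted p = 2.46e-09), and Egr2 (-1.73) and Dusp2 (-1.37) fell with it. Against them stood Fosl2, an AP-1 subunit, with values of 8.37 and 8.33 on the untreated arrays and 9.99, 10.27 and 10.39 on the irradiated arrays (1.87 ± 0.12), and the nuclear receptor gene Nr4a2 (1.69 ± 0.11). Fos was at 0.01 and Nr4a1 at -0.03. Of 20 NF-kB and inflammatory genes, 6 rose and 6 fell, with Ptgs2 (0.76) the largest rise and Tnf (-0.73) the largest fall. Ptgs2 lay under the signal filter on all WT thymocyte arrays. Without untreated 1 the NF-kB counts were 2 and 3, and without untreated 2 they were 3 and 3 (3 falls without irradiated 1 or with centred arrays).

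The interferon-stimulated genes fell almost throughout. Of 32 tested, 29 fell and 0 rose in limma (30 and 0 at an unadjusted p under 0.05), with a median of -0.86, beside 21.7% of all genes that fell. Gbp3 (0.19), Irf8 (-0.13) and Oasl2 (-0.31) were the members not called, and 4 more were too dim to test. Ifit3, a cytoplasmic sensor of viral RNA, had values of 9.94 and 9.9 on the untreated arrays and 7.13, 7.37 and 7.17 on the irradiated arrays, a measured difference of -2.69 ± 0.10 (adjusted p = 5.65e-11). Its irradiated values were under the filter level, against which the fall was at least 3.91-fold. Ifit1 had values of 10.02 and 9.87 on the untreated arrays and 7.83, 7.97 and 7.98 on the irradiated arrays (-2.01 ± 0.11), and Usp18, which damps interferon signalling, had values of 10.16 and 10.08 on the untreated arrays and 8.01, 8.24 and 8.09 on the irradiated arrays (-2.01 ± 0.12) with 10 of 10 probe sets lower. Rtp4 (-1.58), Ifi203 (-1.40) and Oas2 (-1.27) followed. Of 11 probe sets of Oas2 tested, 9 fell and 2 rose. The regulators Irf7 (-0.99), Irf1 (-0.74), Irf9 (-0.46) and Stat2 (-0.58) fell as well. The mean over the 32 members lay at 9.57 and 9.69 on the untreated arrays and from 8.60 to 8.80 on the irradiated ones. The family of symbols beginning with Ifi fell in 14 of 18 tested, Ifi205 by 2.07 among them.

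Antigen presentation genes fell with them, in a list added after the values were seen: 18 of 21 class I genes fell and 0 rose in limma (the same counts at an unadjusted p under 0.05), with a median of -0.54 (11 fell without untreated 1, and 11 with centred arrays). H2-T24 (-1.48), H2-T10 (-1.24), H2-Q7 (-1.16), H2-Q6 (-1.11) and the activator Nlrc5 (-0.75) fell, B2m was at -0.13 without a call, and these close paralogs may share probes. The proteasome cap gene Psme2 (-1.13), which interferon induces, fell, and among 41 proteasome genes taken by symbol 22 fell and 1 rose.

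Markers of thymocyte stages fell more often than they rose, with small changes in the surface coreceptors. All genes tested did so too (21.7% fell and 13% rose), beside falls of 47.8% of the double-positive and 48.7% of the single-positive markers. Among 23 double-positive markers, 11 fell and 1 rose, with a median of -0.24 (3 fell without untreated 1, 7 without untreated 2, and 7 with centred arrays). Cd4 had values of 13.5 and 13.43 on the untreated arrays and 13.16, 13.22 and 13.12 on the irradiated arrays, lower by 1.23-fold (-0.30 ± 0.10, adjusted p = 0.0293). Cd8a (-0.10) and Rag1 (-0.08) were not called, and both came to above 0 with centred arrays. Rag2 fell by 0.39, Dntt, the terminal transferase gene, by 0.63 and the sialyltransferase gene St6gal1 by 1.00. The rise was Cd24a (0.36), a call lost without either untreated array.

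Among 39 markers of selected and mature single-positive cells, 19 fell and 2 rose, with a median of -0.24. Cd69, a marker of recent selection that holds cells in the thymus, had values of 11.37 and 11.28 on the untreated arrays and 9.11, 9.46 and 9.25 on the irradiated arrays (4.16-fold lower, -2.06 ± 0.11, adjusted p = 2.4e-09). Zbtb7b, the commitment factor of CD4+ cells, had values of 10.14 and 10.28 on the untreated arrays and 8.63, 8.76 and 8.58 on the irradiated arrays (-1.55 ± 0.12), and Cd5, whose level follows receptor signal strength, had values of 12.28 and 12.24 on the untreated arrays and 10.96, 11.04 and 10.71 on the irradiated arrays (-1.36 ± 0.11). St3gal6 (-1.62), Ccr4 (-1.37) and Egr2 fell, and all 7 tested Gimap genes, survival GTPases of mature lymphocytes, fell by 0.41 to 0.78. The egress genes S1pr1 (0.00) and Klf2 (0.02) were not called. Ctla4 (1.56) and Ccr7 (0.43) rose, and without untreated 2, 1 of these calls was left.

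Early precursor markers moved both ways, with 4 of 17 higher (23.5%) and 5 lower (29.4%). Over all genes tested, 13% rose and 21.7% fell. Mpzl2, an adhesion protein gene, had values of 8.08 and 8 on the untreated arrays and 10.29, 10.54 and 10.59 on the irradiated arrays, 5.42-fold higher (2.44 ± 0.12, adjusted p = 5.74e-10), and Kit (0.92), Hes1 (0.59) and Notch1 (0.52) rose. Dtx1 (-0.87), a Notch target, Sfpi1 (now Spi1, -0.72), Flt3 (-0.61) and Lmo2 (-0.59) fell, and Il7r (-0.13) was not called. Of the T cell transcription factors, 3 of 21 rose (14.3%, near the share of all genes) and 8 fell (38.1%). Gata3 had values of 11.68 and 11.58 on the untreated arrays and 10.51, 10.56 and 10.61 on the irradiated arrays (-1.07 ± 0.10), and Id2 (-1.30) and Id3 (-0.86), inhibitors of E proteins, fell with it. Gfi1 fell by 0.50 (adjusted p = 0.0102), from 10.51 and 10.54 on the untreated arrays and 9.98, 10.16 and 9.94 on the irradiated arrays, and its call was lost without untreated 1 (adjusted p = 0.061) or untreated 2 (adjusted p = 0.0627). Of 28 genes of T cell receptor signalling, 11 fell (39.3%) and 3 rose (10.7%, near the share of all genes). The counts were 6 and 1 without untreated 1, with 1 rise also without irradiated 3 or untreated 2. The median of these genes turned from -0.09 to 0.03 with centred arrays. Vav1 (-0.74), Cd3d (-0.73) and Ptprc (-0.65) fell, and Cblb (0.71), a ligase that restrains the receptor, rose. Of the chemokine receptors, 5 of 10 fell (50%) and 2 rose (20%), with 1 rise without untreated 1, untreated 2, irradiated 1 or irradiated 3. With the 5 WT arrays fitted alone, 2 fell. Cxcr6, Ccr2 and Ccr6, which fell, lay under the signal filter on all WT thymocyte arrays and were tested only through arrays labelled KO. Cxcr6 had dim values of 7.72 and 7.7 on the untreated arrays and 6.29, 6.14 and 6.14 on the irradiated arrays (-1.52 ± 0.11).

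The lists of B cell, NK cell and macrophage markers held falls and 0 rises, and the granulocyte list held rises as well as falls. In bulk samples, fewer cells of a type and less RNA per cell cannot be told apart. Of 12 B cell markers, 10 fell and 0 rose in limma (11 and 0 at an unadjusted p under 0.05), with a median of -0.93. Ms4a1, which encodes CD20, had values of 8.69 and 8.25 on the untreated arrays and 6.83, 6.93 and 6.81 on the irradiated arrays (-1.61 ± 0.12, adjusted p = 4.32e-08), and Bank1 (-1.31), Faim3 (now Fcmr, -1.29) and Cd79a (-1.13) fell. The mean over the B cell markers lay at 8.99 and 9.14 untreated and from 8.15 to 8.25 irradiated. Of 12 markers of NK and cytotoxic cells, 8 fell and 0 rose (9 and 0 unadjusted), with a median of -0.84 and means of 8.97 to 9.09 against 8.27 to 8.39. Nkg7, a granule protein gene, had values of 10.85 and 10.78 on the untreated arrays and 9.13, 9.38 and 9.72 on the irradiated arrays (-1.40 ± 0.21), while Prf1 (-0.16) and Eomes (-0.29) were not called and Ncr1, Klrk1 and 5 more were too dim to test. Gamma delta markers held 3 falls of 8, which became 1 without untreated 1 and 0 with the 5 WT arrays fitted alone. Among these falls, Il18r1 and Ccr6 lay under the signal filter on all WT thymocyte arrays and were tested only through arrays labelled KO.

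Of 23 macrophage and dendritic cell markers, 18 fell and 0 rose in limma (20 and 0 at an unadjusted p under 0.05), with a median of -0.69 and means of 9.08 to 9.21 untreated against 8.15 to 8.24 irradiated. Lyz2, a lysozyme gene of myeloid cells, had values of 11.89 and 11.83 on the untreated arrays and 8.97, 9.29 and 8.86 on the irradiated arrays, a fall of 7.06-fold (-2.82 ± 0.14, adjusted p = 7.81e-10), and its near-identical copy Lyz1 (-2.42) may share its probes. H2-Aa, a class II gene, had values of 11.9 and 11.84 on the untreated arrays and 9.87, 9.99 and 9.81 on the irradiated arrays (-1.98 ± 0.11). Ctss (-1.40), Cybb (-1.39) and Itgam (-1.43) fell, and 9 listed markers, Cd14, Mrc1 and Mertk among them, were too dim to test. Of 12 granulocyte markers, 10 fell and 2 rose, with a median of -1.20 (4 fell and 0 rose without untreated 1, and likewise without untreated 2, while 0 rose without irradiated 1 and 1 without irradiated 2 or irradiated 3) and means of 9.10 to 9.26 against 7.91 to 8.01. S100a8, an abundant neutrophil alarmin gene, had values of 9.64 and 9.45 on the untreated arrays and 7.22, 7.1 and 6.97 on the irradiated arrays (-2.45 ± 0.11, adjusted p = 4.07e-10). S100a9 (-2.06), Mmp8 (-2.08), Lcn2 (-1.98) and Ltf (-1.69) fell, while the early granule genes Mpo (0.42) and Ela2 (0.33, now Elane) rose. The part of these cells in the falls of the interferon, class I and mature cell genes was not tested.

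The stromal markers depended on the scaling. Of 18 markers of thymic epithelium and stroma, 3 rose and 3 fell, with Epcam at -0.92, Ccl25 at -0.57 and Col1a1 at 0.48 (0 rose without untreated 1, 5 without irradiated 2 and 6 with quantile normalization, and with centred arrays 9 rose and 2 fell), and 10 more, Foxn1 and Psmb11 among them, were too dim to test. The stromal counts of 3 and 3 (16.7% each) lay near the shares over all genes tested, of which 13% rose and 21.7% fell. Of 8 erythroid and megakaryocyte markers 2 fell (25%, also near the share of all genes), Car2 (-1.71) and Pf4 (-0.61). Pf4 lay under the signal filter on all WT thymocyte arrays.

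The largest single change was the fall of Slc15a2, a proton-coupled peptide transporter gene, with values of 10.92 and 10.89 on the untreated arrays and 6.05, 5.92 and 5.71 on the irradiated arrays. The measured difference was -5.01 (SE 0.13 in the fit, adjusted p = 2.31e-13), and all 15 of its probe sets fell. All 3 irradiated values lay under the brightness filter, the 40th percentile of each array (7.90 to 7.99 on the irradiated arrays), so the size of the fall has only a bound, and against that level it was at least 7.73-fold. In thymocytes labelled Gfi1 KO its values were 10.03 and 10.14 untreated and 10.36, 10.71 and 10.24 irradiated. Low values were not particular to irradiated WT thymocytes. The WT ENU tumours were at 5.34, 5.79 and 8.75, and all but the last lay as low as the irradiated WT arrays. No other group of the series lay as low on all of its arrays. Snord118, a small nucleolar RNA, fell by 2.50 (adjusted p = 6.52e-05) from 11.18 and 10.81 to 8.54, 8.66 and 8.29, and 11 of 25 small nucleolar RNA genes fell and 2 rose. Lypd6b (-2.05) and Gm11428 (now Wfdc17, -2.45) were also among the 15 largest falls.

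Several of the largest rises lie outside the listed pathways. P2ry14, a receptor for UDP sugars, had values of 7.99 and 7.76 on the untreated arrays and 9.84, 10.15 and 10.03 on the irradiated arrays (2.13 ± 0.11, adjusted p = 1.97e-09). Pde3b, a phosphodiesterase of cyclic nucleotides, had values of 10.33 and 10.17 on the untreated arrays and 12.19, 12.4 and 12.43 on the irradiated arrays (2.09 ± 0.10), with 17 of 17 probe sets higher. Tcf7l2, a transcription factor of Wnt signalling, had values of 8.67 and 8.65 on the untreated arrays and 10.62, 10.58 and 10.94 on the irradiated arrays (2.05 ± 0.13), with 20 of 21 probe sets higher. Cecr2 (2.12), a chromatin remodeller, Slc38a3 (2.06), a glutamine transporter gene, Syt13 (1.95), Lce1b (2.12) and 4932414N04Rik (1.92) rose without overlap, the last pair with 1 bright probe set each.

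**Figure D4:**
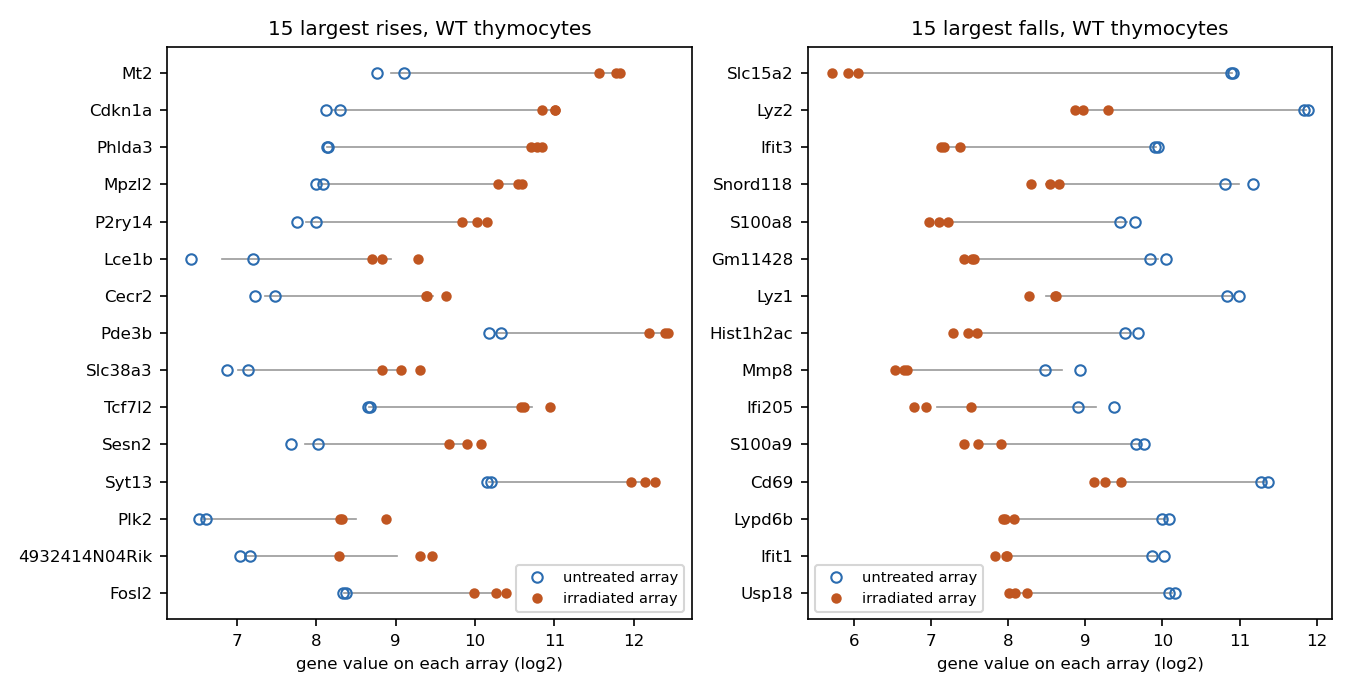
Gene values (log2, horizontal axis) on the 2 untreated (open circles) and 3 irradiated WT arrays (filled circles) for the 15 largest rises and the 15 largest falls, with a grey line between the group means. The groups do not overlap for any gene shown, which the rule for naming them required, and Slc15a2 has the widest gap.

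Metabolic and growth genes changed by smaller amounts. Their counts stand beside 13% of all genes tested that rose and 21.7% that fell. The ribosome biogenesis genes (14% and 27.9%) and the cholesterol genes (15% and 15%) lay near these shares. Of 35 genes of oxidative phosphorylation, 10 fell and 0 rose in limma (10 and 0 at an unadjusted p under 0.05), with a median of -0.20 (5 fell without untreated 1), and Cox7a2 (-0.93), Ndufa1 (-0.81) and Ndufb5 (-0.76) fell most. Among ribosomal protein genes, taken by symbol, 26 of 59 fell and 0 rose (30 and 1 unadjusted), with a median of -0.31. Of 43 ribosome biogenesis genes, 12 fell and 6 rose (7 and 3 without untreated 1, 1 rise without untreated 2 and 3 rises without irradiated 2). Gnl3 (-1.03), Nop16 (-0.83) and Tsr1 (-0.76) fell, and the polyamine enzyme gene Odc1 (0.64) rose. Of 18 glycolysis genes, 6 fell and 1 rose (5 and 3 with centred arrays). Pdk1, a kinase that inhibits pyruvate dehydrogenase, had values of 11.23 and 11.18 on the untreated arrays and 10.18, 10.32 and 10.18 on the irradiated arrays (-0.98 ± 0.10). The glycolysis median turned from -0.08 to 0.03 with centred arrays. Cholesterol genes held 3 rises and 3 falls of 20, with Abca1 (0.51), the cholesterol efflux pump gene, and Sc4mol (-0.81, now Msmo1) the largest in each direction. Leaving out irradiated 2 gave 6 cholesterol falls, and leaving out untreated 1 gave 1 rise and 1 fall.

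The irradiated and untreated thymocytes labelled Gfi1 KO allow a test of what differs in the WT response. Gfi1 itself was at 10.86 and 10.72 untreated and 8.39, 8.77 and 8.98 irradiated in them, so that its level in the untreated samples labelled KO was not below the WT values. No label says which part of the gene was removed or what each probe set covers, and genotype names are those of the labels. The KO response minus the WT response passed the threshold for 240 of 12747 genes (1.88%), above 0 for 140 and below 0 for 100, and for 88 genes without WT untreated 1 and 89 without WT untreated 2. Among the p53 targets, Cdkn1a rose less in the samples labelled KO (by 1.83 against 2.74, difference -0.91 ± 0.18, adjusted p = 0.0125), and Ddb2 rose there by 0.79 (difference 0.73 ± 0.14, adjusted p = 0.00899). Jun also belongs to the differing members of the immediate early list, named here after its value was seen (1.19 in WT and -0.42 in KO, adjusted p = 0.000406).

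The stress genes Asns (0.56 in KO, difference -1.19 ± 0.18, adjusted p = 0.00211), Slc38a3 (0.80, -1.26 ± 0.19, adjusted p = 0.00163) and Mt2 (1.78, -1.01 ± 0.24, adjusted p = 0.0435) rose more in WT. Untreated WT values of Asns and Slc38a3 lay under the filter level. Against it their WT rises were at least 0.87 and 1.19, so the sizes of their differences are uncertain. The untreated starting levels of Mt2 were 9.11 and 8.76 in WT and 11.47 and 10.84 in KO. Of 12 granulocyte markers, 11 differed. S100a8, for example, was at 5.91 and 6.05 untreated and 6.09, 6.02 and 6.21 irradiated in KO, low throughout, and its KO response was 0.13 (difference 2.57 ± 0.16, adjusted p = 6.63e-08). Its irradiated WT values also lay under the filter level, against which its WT fall was at least 3.01-fold. Slc15a2 had the widest measured difference (5.36 ± 0.19, adjusted p = 2.14e-11), which is at least 3.30 with its WT irradiated arrays set to the filter level. Mpzl2 rose more in KO, by 3.13 (difference 0.69 ± 0.16, adjusted p = 0.0386), and so did Tcf7l2, by 2.85 (difference 0.80 ± 0.18, adjusted p = 0.0236). Of 32 interferon genes 1 differed, of 44 replication genes 0 and of 40 mitosis genes 0 in limma (6, 7 and 3 at an unadjusted p under 0.05), and a p that misses the threshold does not show that the responses were alike.

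**Figure D5:**
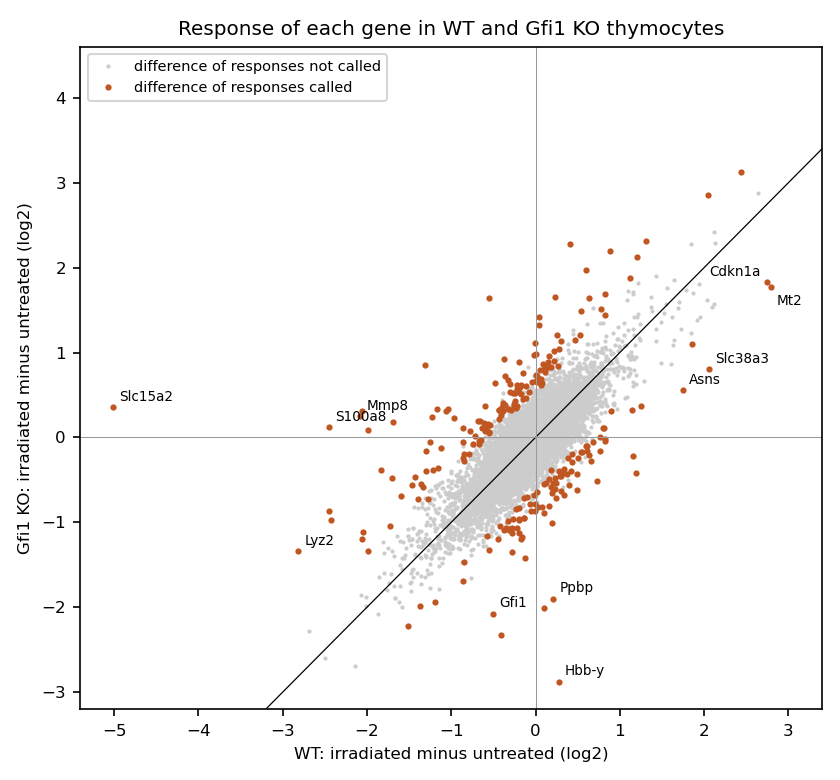
Irradiated minus untreated difference (log2) of each of 12747 genes in WT thymocytes (horizontal axis) and in thymocytes labelled Gfi1 KO (vertical axis), with the line of equal response. Genes whose responses differed past the threshold (240) are coloured, and Slc15a2 lies far to the left at -5.01 in WT and 0.35 in KO.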

How the data were processed

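The authors deposited a table of 182058 probe sets by 20 arrays, with values from 3.37 to 15.01, read here as log2 signal from the values alone. Per the labels' protocols, RNA was amplified with a NuGEN kit and labelled with biotin. No source used here states how they were normalized or in which log base, so a fold holds only for base 2. Probe sets were named through GEO's platform annotation, which can be old: 167016 name 1 gene and were used, 3388 name several and 11654 none.

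A gene's value is the median of its probe sets after centring each over all 20 arrays, plus the mean of their means. Genes above the 40th percentile of an array on at least 2 of the 10 thymocyte arrays were tested. The fit (limma 3.58.1, R 4.3.3, and the R package data.table, version 1.17.8) held 1 mean for each of 4 groups, so the KO arrays share in the spread but not in the WT difference. It was tested on simulated data. Figures used Python 3.11.15 and matplotlib 3.10.9. The number of arrays, 3 against 2, limits the precision.

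The members and lists were chosen with earlier results of these data known. Named genes are up to 15 largest rises and falls without overlap, for each list its 6 members of lowest p or fewer, a set of p53 and thymocyte genes (Cdkn1a, Mdm2, Rag1 and the like) and up to 8 largest differences between responses. Further members were named after their values were seen. Alternatives were other samples in the fit, scaling, filters, gene summary, repeated probe sets left out, spread model, replicate block and leaving out each array.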

Additional observations from a re-analysis of the deposited data

Results flagged for a closer look

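The irradiation response of the following genes differed between thymocytes labelled Gfi1 KO and WT, by the limma test of the difference itself at an adjusted p under 0.05. Values are the KO response minus the WT response on the log2 scale. Among the largest WT rises, the difference was -1.01 for Mt2, -0.91 for Cdkn1a, -1.26 for Slc38a3, 0.69 for Mpzl2 and 0.80 for Tcf7l2. Among the largest WT falls, it was 5.36 for Slc15a2, 1.48 for Lyz2, 1.45 for Lyz1, 1.58 for Gm11428, 0.86 for Cd69 and 0.94 for Lypd6b. Slc38a3 lay under the signal filter on all untreated WT arrays, and Slc15a2 and Gm11428 on all irradiated WT arrays. The sizes of their differences are less certain.

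The granulocyte genes differed by 2.57 (S100a8), 2.38 (S100a9), 2.33 (Mmp8), 1.87 (Ltf), 2.07 (Lcn2) and 1.38 (Camp). Other myeloid genes differed by 0.65 (H2-Aa), 0.67 (Cybb) and 0.97 (Itgam). Erythroid and megakaryocyte genes, which changed in the samples labelled KO, differed by -3.15 (Hbb-y), -0.94 (Slc4a1), -1.20 (Alas2) and -2.11 (Ppbp), and the liver gene Alb differed by -2.12. The antibody light chain genes Igk and Igl-V2 differed by 2.20 and 2.16. Hbb-y, Alas2, Ppbp, Alb and Igk lay under the signal filter on all WT thymocyte arrays and were tested only through arrays labelled KO. Their differences set KO signals against dim WT values. S100a8, S100a9, Mmp8, Ltf, Itgam and Igl-V2 lay under the filter on all irradiated WT arrays. Against it their WT falls were at least 1.59, 1.76, 0.75, 1.52, 0.98 and 0.07, in that order. Slc4a1 lay under it on all untreated WT arrays. The sizes of these differences are less certain.

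Among regulators and signalling genes, the difference was 0.73 for Ddb2, -1.57 for Gfi1, 0.55 for Oas2, 0.68 for Egr2, 1.13 for Id2, 0.65 for Birc3 and -1.19 for Asns. Among chemokine and cytokine genes it was -0.61 for Ccr4, -0.70 for Cxcr6, 1.37 for Ccl3 and -1.07 for Il23r. Cxcr6 and Il23r also lay under the signal filter on all WT thymocyte arrays, so their differences carry the same limit. Asns lay under it on all untreated WT arrays, so the size of its difference is less certain.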

How the results depend on the processing

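With all 20 arrays in the fit, which adds the spread of the tumours, 548 genes passed (192 higher and 356 lower, 48 and 101 over 2-fold) and 6 differed between the responses. Of 238 named genes, 148 lost their call there, Mt2 and Mpzl2 among them. Centring the arrays gave 3071 rises. Leaving out 1 array gave 2111 to 5128 calls, 765 to 1938 rises, 1346 to 3190 falls, 91 to 111 rises and 196 to 284 falls over 2-fold, 88 to 243 differences between responses and 6752 to 25034 probe sets called, beside 22753 with all arrays. With the replicate number as a block, 14811 probe sets passed. The deviations of same-numbered arrays from their group means had correlations of -0.334 and -0.467. With 2 untreated arrays these deviations mirror each other, so the check cannot show whether same-numbered arrays share more than a number. The block kept the counts over all genes within 1.5 times and moved 7 of 74 list counts by more: rises from 6 to 3 for ribosome biogenesis, 4 to 2 for mitosis, 2 to 1 for chemokine receptors and for granulocytes and 1 to 0 for glycolysis, and falls from 1 to 0 for replication and for tRNA synthetases. Among the named genes and these alternatives, direction turned only for genes that were not called. With centred arrays Trp53inp1 came to 0.041, Rag1 to 0.038, Cd8a to 0.016, Rchy1 to 0.048 and Maf to 0.025, and with the mean over probe sets Ddb2 came to -0.0089. Leaving out 1 array gave -0.0083 to 0.119 for Ddb2, -0.17 to 0.0303 for Rchy1, -0.033 to 0.149 for Casp9 and -0.187 to 0.0014 for Maf. The causes were not tested. Besides centring and the fit of all 20 arrays, the scalings, filters, gene summaries and spread models kept the counts of called genes over the whole table within 1.5 times of the main one, but not every list count. Of 74 list counts, 2 moved by more with quantile normalization (stromal rises 3 to 6, glycolysis rises 1 to 2), 2 with the 5 WT arrays alone (chemokine receptor falls 5 to 2, gamma delta falls 3 to 0), 4 without a filter, 5 with the mean over probe sets, 1 with trend and robust, 13 with the 60th percentile filter, which tests fewer genes (B cell falls 10 to 6, macrophage falls 18 to 11, granulocyte falls 10 to 6), 16 with centred arrays and 63 with all 20 arrays. Genes below the signal filter, 6860 of them, have no test.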
